A study of Homo sapiens with 8 samples.

Results

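The 10 genes described here, which are read as markers or drivers of the epithelial-mesenchymal transition (EMT), were followed by RNA-seq in Hep3B cells, a human hepatocellular carcinoma line. They were chosen by name: CDH1, EPCAM, CDH2, VIM, ZEB1, ZEB2, SNAI1, SNAI2, TWIST1 and FSCN1. All 10 of 10 were in the table that compared knockout cells with Hep3B, which listed 16040 genes, and 9 of 10 were in the table of siRNA-transfected cells, which listed 14955 genes. ZEB2 was not listed in the siRNA table, so its level there lay below the limit for a transcript to be listed, a sum of 10 expected counts over the 4 libraries.

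The 8 libraries fell into 4 conditions of 2 libraries each. Untreated wild-type Hep3B cells were set against Hep3B cells labelled SOX4-/-, a knockout made with CRISPR/Cas9. Wild-type Hep3B cells transfected with a control siRNA were set against Hep3B cells transfected with an siRNA to STAT6. SOX4 is an HMG-box transcription factor and STAT6 is the factor that answers interleukin-4. The study used a pair of knockout lines, kept in medium with puromycin, and the labels do not say whether library 1 and library 2 came from the lines of the same number, so line, antibiotic and loss of SOX4 cannot be told apart here. Nothing in the labels says that the 2 libraries of the other conditions came from separate cultures, so the tests measure the spread between libraries, which may be technical.

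In EMT, epithelial cells lose the junctions that hold them together and gain the cytoskeleton and motility of mesenchymal cells. E-cadherin (CDH1) and EpCAM (EPCAM) hold epithelial cells together, while N-cadherin (CDH2) and vimentin (VIM) mark mesenchymal cells, and a change from E- to N-cadherin is often called the cadherin switch. ZEB1, ZEB2, SNAI1 (Snail), SNAI2 (Slug) and TWIST1 are transcription factors that drive the programme, and the ZEB and Snail proteins repress CDH1 by binding E-boxes in its promoter. Fascin (FSCN1) bundles actin filaments in filopodia and invasive protrusions. Fascin is scarce in normal hepatocytes and appears in many carcinomas.

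Totals ran from 16266282 to 25353113 expected counts per library. The hepatocyte marker ALB stood at 6824 CPM (counts per 1000000 counts, scaled by TMM within each table) or more in the 4 libraries of the knockout table, which fits a liver line. Transcripts of SOX4 did not mark the knockout. SOX4 stood at 799 and 266 CPM in Hep3B against 298 and 302 CPM in the libraries labelled SOX4-/- (adjusted p = 0.372). An edit that only shifts the reading frame can leave the mRNA in place. The kind of edit is not given in the sources used here and was not tested. STAT6 fell from 32.0 and 13.2 to 2.76 and 2.20 CPM in the libraries labelled SOX4-/- (log2 fold change -3.18, adjusted p = 0.0275), and stood at 42.5 and 31.4 CPM with the control siRNA against 9.92 and 5.98 CPM with STAT6 siRNA, which did not pass the test.

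In the libraries labelled SOX4-/-, fascin mRNA (FSCN1) was 7.83-fold lower and N-cadherin mRNA (CDH2) 5.44-fold higher than in Hep3B, while E-cadherin (CDH1) and EpCAM (EPCAM) mRNA did not pass the test. Of the 10 genes, 9 had enough counts to be tested, and 2 passed: CDH2 rose and FSCN1 fell (edgeR's quasi-likelihood test, Benjamini-Hochberg adjusted over all genes). Over all 14415 genes tested, 5.89% passed, 648 higher and 201 lower. The median log2 fold change of the 9 genes was -0.10, against 0.01 over all genes tested. Both libraries labelled SOX4-/- lay outside the range of both Hep3B libraries for 5 of the 9 genes, higher for CDH2 and VIM and lower for ZEB1, SNAI2 and FSCN1, which is close to the 58% of all genes tested that did so. The plot of levels by library shows each of these values.

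Per kilobase of transcript, so that genes can be set against each other, the epithelial gene EPCAM and the mesenchymal gene VIM were the most abundant of the set in Hep3B. EPCAM averaged 230.2 CPM per kb and VIM 219.7 CPM per kb, and their libraries overlapped. FSCN1 followed with 76.2, CDH1 with 39.8, CDH2 with 8.0 and ZEB1 with 4.63 CPM per kb, each with both libraries below those of the gene before it. SNAI2 (1.66 CPM per kb) and SNAI1 (1.30 CPM per kb) overlapped each other, as did TWIST1 (0.336 CPM per kb) and ZEB2 (0.141 CPM per kb). Untreated Hep3B cells thus carried EPCAM, CDH1, VIM and FSCN1 mRNA side by side, with far less CDH2 and only traces of most of the transcription factors. In the libraries labelled SOX4-/- the order changed: VIM averaged 400.2 and EPCAM 214.7 CPM per kb, CDH2 (43.9 CPM per kb) came level with CDH1 (36.7 CPM per kb) with overlapping libraries, and FSCN1 dropped to 9.73 CPM per kb. Lengths are those of matched transcripts in GENCODE 29, and the 3 minor CDH1 transcripts share 1 matched length.

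Among the adhesion genes, CDH1 (chromosome 16, 68737290 to 68835542, hg38) stood at 79.2 and 247.9 CPM in the Hep3B libraries against 151.3 and 148.6 CPM in those labelled SOX4-/-. Both knockout values lay between the Hep3B values, which were 3.13-fold apart. The log2 fold change of CDH1 was -0.12 (SE 0.52, adjusted p = 0.904), and it turned to 0.92 when Hep3B library 2 was left out. Most CDH1 counts, 75.5% to 81.5% in the 4 libraries, were assigned to 1 of its 4 listed transcripts. EPCAM (chromosome 2, 47369148 to 47387028) stood at 394 and 399 CPM in Hep3B against 413 and 327 CPM in the libraries labelled SOX4-/-. One knockout value was above and the other below both Hep3B values (log2 fold change -0.10, SE 0.37, adjusted p = 0.889).

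CDH2 (chromosome 18, 27950963 to 28177446, minus strand) stood at 33.0 and 31.5 CPM in Hep3B and at 233.5 and 117.5 CPM in the libraries labelled SOX4-/-. Both knockout libraries were higher than both Hep3B libraries, and the knockout libraries differed from each other 1.99-fold. The means were 32.3 ± 1.09 and 175.5 ± 82.1 CPM (SD, n = 2 each), a 5.44-fold rise (log2 fold change 2.44, SE 0.43, adjusted p = 0.0261). With 1 knockout library left out the rise no longer passed (log2 2.82, adjusted p = 0.0771 without library 2; log2 1.86, adjusted p = 0.150 without library 1), nor did it when all 8 libraries were fitted together (log2 2.38, adjusted p = 0.0802).

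The CDH2 counts came from 2 transcripts with starts 140861 bases apart on the minus strand, the upstream one being NM_001792 and the downstream one NM_001308176. NM_001792 went from 14.5 and 19.7 CPM in Hep3B to 114.7 and 53.0 CPM in the libraries labelled SOX4-/-. NM_001308176 went from 18.6 and 11.8 CPM to 118.8 and 64.5 CPM. Both transcripts were higher in both knockout libraries, and the upstream one held 43.8% and 62.6% of the CDH2 counts in Hep3B, against 49.1% and 45.1% with the SOX4-/- label. Reads in the exons that the transcripts share are divided between them by estimation, so these shares carry an error that the files do not give. The transcripts were not tested one by one.

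**Figure D1:**
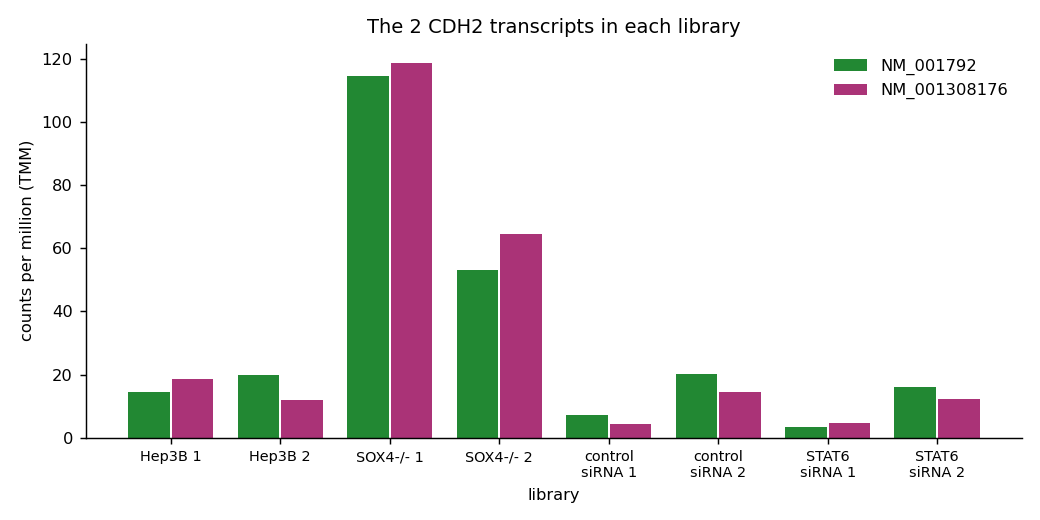
Bars give the TMM-scaled CPM of the 2 CDH2 transcripts (green, NM_001792, upstream start; purple, NM_001308176, downstream start) in each of the 8 libraries along the horizontal axis, from 0. In the libraries labelled SOX4-/- both transcripts stood between 53.0 and 118.8 CPM, above the 20.3 CPM that neither exceeded in the 6 other libraries.

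The sequences around both CDH2 starts are shown because both transcripts were higher in the libraries labelled SOX4-/-. They are from RefSeq (GRCh38.p14, minus strand, written 5′ to 3′), 250 bases before each RefSeq start in lower case and the 30 bases from that start on in capitals.
CDH2 upstream start, chr18:28177101-28177380: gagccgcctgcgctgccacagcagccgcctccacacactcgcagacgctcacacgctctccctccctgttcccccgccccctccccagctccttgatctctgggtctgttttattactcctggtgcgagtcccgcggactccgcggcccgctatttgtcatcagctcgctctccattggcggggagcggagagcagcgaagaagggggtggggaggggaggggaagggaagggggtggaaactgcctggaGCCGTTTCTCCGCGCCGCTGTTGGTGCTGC
CDH2 downstream start, chr18:28036612-28036891: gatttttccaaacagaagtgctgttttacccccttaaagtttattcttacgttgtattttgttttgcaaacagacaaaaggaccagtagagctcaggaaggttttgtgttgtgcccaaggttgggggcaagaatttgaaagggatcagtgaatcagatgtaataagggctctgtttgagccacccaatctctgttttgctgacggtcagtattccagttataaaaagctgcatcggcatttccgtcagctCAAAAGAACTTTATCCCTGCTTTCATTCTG
The window at the upstream start had a GC content of 66.4% and that at the downstream start 41.4%. The listed NM_001792 begins 316 bases further upstream than the RefSeq start used here, so the upper window lies within it. The listed NM_001308176 begins 56 bases further downstream than its RefSeq start, so the lower window, capitals included, lies wholly upstream of it. The RefSeq windows of 300 bases (250 before and 50 from the start on) were searched on both strands for the E-box CACCTG and for a SOX motif of 7 bases, A or T in the first 2 places, then CAA, A or T, and G. Of the 35116 windows in the table, 20.6% held the E-box and 20.4% the SOX motif. Windows were found for 4 of the 10 genes, 11 windows in all, and the E-box was in 2 of them, both among the 7 windows of ZEB1, while the SOX motif was in 0. A match or its lack says only whether these letters stand in these windows.

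Of the cytoskeletal genes FSCN1 passed the test and VIM did not. FSCN1 (chromosome 7, 5592805 to 5606656) stood at 249.5 and 173.5 CPM in Hep3B and at 16.6 and 37.4 CPM in the libraries labelled SOX4-/-. Both knockout libraries were far below both Hep3B libraries, with 439 and 681 counts behind the low values. The means were 211.5 ± 53.7 and 27.0 ± 14.7 CPM (SD, n = 2 each), a 7.83-fold fall (log2 fold change -2.97, SE 0.49, adjusted p = 0.0234). Between libraries of the same number the log2 difference was -3.87 and -2.20. The fall passed the test in the fit of all 8 libraries (adjusted p = 0.0147) and without either Hep3B library, but not without knockout library 1 (log2 -2.50, adjusted p = 0.129) or knockout library 2 (log2 -3.70, adjusted p = 0.0808).

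VIM (chromosome 10, 17228259 to 17237593) stood at 647.6 and 290.6 CPM in Hep3B and at 662.9 and 1046 CPM in the libraries labelled SOX4-/-. Both knockout values were higher than both Hep3B values, 1 of them only narrowly. The log2 fold change of 0.87 (SE 0.52, adjusted p = 0.332) did not pass, and within libraries of the same number it was 0.03 and 1.85. Its spread between Hep3B libraries, 2.23-fold, was larger than the mean difference of 1.82-fold.

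Of the 4 transcription factors tested in the libraries labelled SOX4-/-, 0 passed in edgeR's quasi-likelihood test, 1 (SNAI2) had an unadjusted p under 0.05, and DESeq2 called that 1. ZEB1 (chromosome 10, 31319172 to 31529814) stood at 28.5 and 17.99 CPM in Hep3B and at 13.7 and 12.3 CPM in the libraries labelled SOX4-/-. Both knockout libraries were lower, without passing (log2 fold change -0.84, SE 0.41, adjusted p = 0.240). ZEB2 (chromosome 2, 144384375 to 144520391) stood at 1.08 and 1.37 CPM against 0.341 and 3.85 CPM, and its knockout libraries lay on either side of Hep3B. SNAI1 (chromosome 20, 49982976 to 49988883) stood at 1.53 and 2.85 CPM against 1.48 and 2.86 CPM, nearly the same pair of values in both conditions.

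Of these 4 factors SNAI2 had the largest fitted difference. It stood at 5.85 and 0.844 CPM in Hep3B (103 and 16 counts) against 0.227 and 0.605 CPM in the libraries labelled SOX4-/- (6 and 11 counts). Both knockout libraries were lower, but most of the Hep3B signal was in library 1. The log2 fold change was -3.02 (SE 1.05, adjusted p = 0.125), and it shrank to -1.12 without Hep3B library 1. It passed with DESeq2 (adjusted p = 0.0368) and without Hep3B library 2 (log2 -3.84, adjusted p = 0.0319). TWIST1 (chromosome 7, 19115468 to 19117672) had 16 and 4 counts in Hep3B, against 0 and 1 with the SOX4-/- label, too few for the test. Scaled by TMM library size, TWIST1 was 24.4 times as frequent in Hep3B (20 counts against 1, exact 95% interval 3.90 to 1011). With Hep3B library 1 left out it was 9.41 times as frequent (4 counts against 1, interval 0.931 to 463.4). These intervals cover counting error only. In a fit of all genes without a count filter the adjusted p was 0.139.

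**Figure D2:**
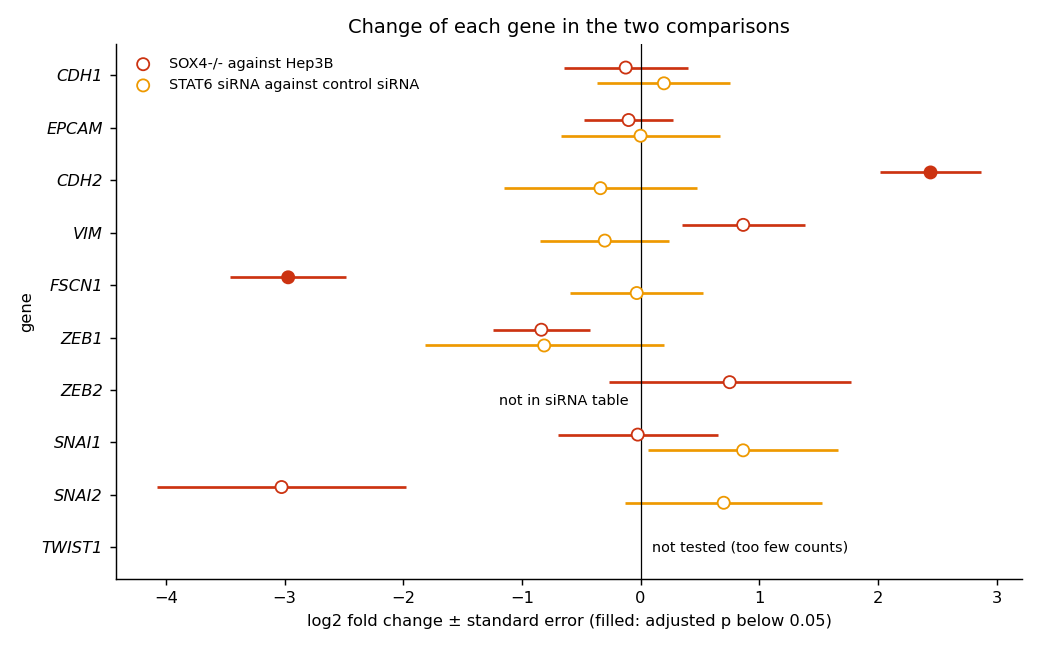
Points give the log2 fold change of each gene with its standard error as a bar, red for SOX4-/- against Hep3B and orange for STAT6 siRNA against control siRNA; filled points passed at an adjusted p below 0.05. FSCN1 at -2.97 and CDH2 at 2.44 were the genes that passed, both in the knockout comparison, and SNAI2 at -3.02 had an SE of 1.05.

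Related genes were taken from 7 lists. Of 8 other cadherin and catenin genes tested (12 on the list), 2 rose and 0 fell, with a median log2 fold change of 0.74. The 2 were K-cadherin and OB-cadherin: CDH6 went from 47.1 and 17.99 CPM to 350.7 and 256.1 CPM (log2 3.22, adjusted p = 0.0236), and CDH11 from 0.341 and 0.105 CPM to 3.03 and 7.15 CPM (log2 4.48, adjusted p = 0.0333). With 6 and 2 counts in Hep3B, CDH11 entered the test through the knockout libraries alone. Under a filter of 10 counts or more in each library, and likewise in the fit of all 8 libraries, 1 of 7 genes of the list passed, CDH6. Without knockout library 1, and likewise without knockout library 2, 0 of the 8 passed.

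Of 16 mesenchymal genes tested (27 on the list), 6 rose, 0 fell and 14 had a log2 fold change above 0, with a median of 1.28 against 0.01 over all genes. The 2 collagen VI chains COL6A1 (1.42 and 1.69 to 35.5 and 24.0 CPM, adjusted p = 0.0105) and COL6A2 (1.02 and 1.48 to 8.14 and 7.59 CPM, adjusted p = 0.0414) were among them. So were AXL, a receptor tyrosine kinase (1.31 and 0.527 to 19.6 and 31.7 CPM, adjusted p = 0.0148), and TAGLN, an actin-binding protein of smooth muscle (4.99 and 7.70 to 87.1 and 51.0 CPM, adjusted p = 0.0153). S100A4, a calcium-binding protein of motile cells, went from 1.87 and 0.316 to 33.1 and 31.2 CPM (adjusted p = 0.0216), and CD44, a hyaluronan receptor, from 0.568 and 0 to 9.58 and 16.1 CPM (adjusted p = 0.0355). All 6 were higher in both knockout libraries than in both Hep3B libraries, but they were picked as passing in these same libraries. Of the 16 genes, 12 had both knockout libraries outside the range of Hep3B, against 58% of all genes tested. CD44 had 10 and 0 counts in Hep3B and S100A4 had 33 and 6. The filter of 10 counts in each library left out both and 4 of 14 genes passed. In the fit of all 8 libraries 4 of 15 passed, without CD44 and COL6A2. DESeq2 called 7 of the 16, not CD44, and LOXL2 and TGFBI as well as the others. Only 1 of the 16 passed without knockout library 1 and 0 without knockout library 2, when 72 and 33 genes passed in all.

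Fibroblasts express several of these genes. Of 8 fibroblast markers, 4 were listed in the knockout table, and LUM and PDGFRB rose in edgeR's test. COL1A1 and PDGFRA did not pass, and 3 of the 4 had a log2 fold change above 0 and 1 below. PDGFRB (adjusted p = 0.0494) did not pass under the filter of 10 counts in each library or in the fit of all 8 libraries. The summed level of the list went from 8.34 and 8.65 to 102.9 and 80.7 CPM, with LUM going from 11 and 14 to 2258 and 986 counts. COL1A2, COL3A1, DCN and THY1 were not listed. Of 4 endothelial markers 1 was listed, PECAM1, at 0.0527 to 0.770 CPM. Of 4 leukocyte markers 3 were listed, with a sum of 44.2 and 29.6 CPM in Hep3B and 76.5 and 96.9 CPM in the libraries labelled SOX4-/-. Nearly all of that sum was CD68, which encodes a lysosomal protein (43.0 and 28.01 to 72.9 and 92.4 CPM, log2 1.22, adjusted p = 0.0968). CD14 went from 1.14 and 1.42 to 3.41 and 4.45 CPM (log2 1.61, adjusted p = 0.146), PTPRC, the gene of the pan-leukocyte marker CD45, stood at 0 to 0.227 CPM, and CD3E was not listed. Hepatocyte markers did not drop as a group in the same libraries: their sum was 13142 and 11291 CPM in Hep3B and 45608 and 27157 CPM in those labelled SOX4-/-. ALB alone stood at 7458 and 6824 CPM in Hep3B and at 28445 and 13644 CPM in those labelled SOX4-/-. Of the 9 markers, 8 had a log2 fold change above 0 and 1 below, and APOA1, FGB and TTR passed as higher in edgeR's test. The part of other cells in the rise of CDH2 and of the mesenchymal genes was not tested.

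Epithelial genes did not fall as a group. Of 20 junction and keratin genes tested and reported here (23 on the list), 0 passed in edgeR and 15 had a log2 fold change above 0, with a median of 0.64. DESeq2 called 2 of the 22 it tested as higher, KRT7 (adjusted p = 0.0196) and CLDN1 (adjusted p = 0.0285), and 0 as lower. Of 11 epithelial regulators tested (12 on the list) 0 passed, with a median of -0.27, and the smallest p belonged to ESRP1, a splicing factor of epithelial cells, at 42.8 and 89.0 CPM in Hep3B against 19.6 and 18.1 CPM (log2 -1.81, adjusted p = 0.0549). Its paralogue ESRP2 lay in the other direction with nearly the same p. It stood at 36.3 and 23.5 CPM in Hep3B against 122.4 and 72.0 CPM (log2 1.70, adjusted p = 0.0571). DESeq2 called both, ESRP1 as lower (log2 -1.85, adjusted p = 0.00358) and ESRP2 as higher (log2 1.66, adjusted p = 0.00648). In edgeR with median-of-ratios factors ESRP1 also passed as lower (log2 -1.85, adjusted p = 0.0489). Of 6 other EMT transcription factors tested (11 on the list) 0 passed, with a median of -0.34, and SNAI3 had the smallest p (log2 2.07, adjusted p = 0.0867).

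Other genes that work beside fascin and vimentin did not pass in edgeR with the settings used throughout. Of 20 other genes of actin bundling and filopodia tested (21 on the list) 0 passed, with a median log2 fold change of 0.16, and 15 were above 0. The smallest p belonged to DIAPH3, a formin (log2 -1.77, adjusted p = 0.0588). Under the filter of 10 counts in each library 1 gene passed, FSCN2, a paralogue of fascin that is named here after its values were seen (log2 2.47, adjusted p = 0.0467). Of 10 intermediate filament genes and linkers tested (13 on the list) 0 passed, with a median of 0.39, and SYNM, a partner of vimentin, had the smallest p (log2 1.59, adjusted p = 0.0559). At an unadjusted p under 0.05 in edgeR there were 5 of 20 actin genes, 3 of 10 intermediate filament genes and 3 of 11 epithelial regulators. The other transcription factors gave 1 of 6, and all genes tested gave 3752 of 14415. DES (0 and 0.105 CPM in Hep3B) and GFAP (0.170 and 0.105 CPM) were among the intermediate filament genes found. Both entered the test through the knockout libraries alone. DESeq2 called 4 of 20, 1 of 10, 2 of 12 and 1 of 7 genes of these lists, against 2122 of all 15729. Without Hep3B library 1, when 2302 genes passed in all, edgeR called 4, 1, 3 and 1 genes of these lists.

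**Figure D3:**
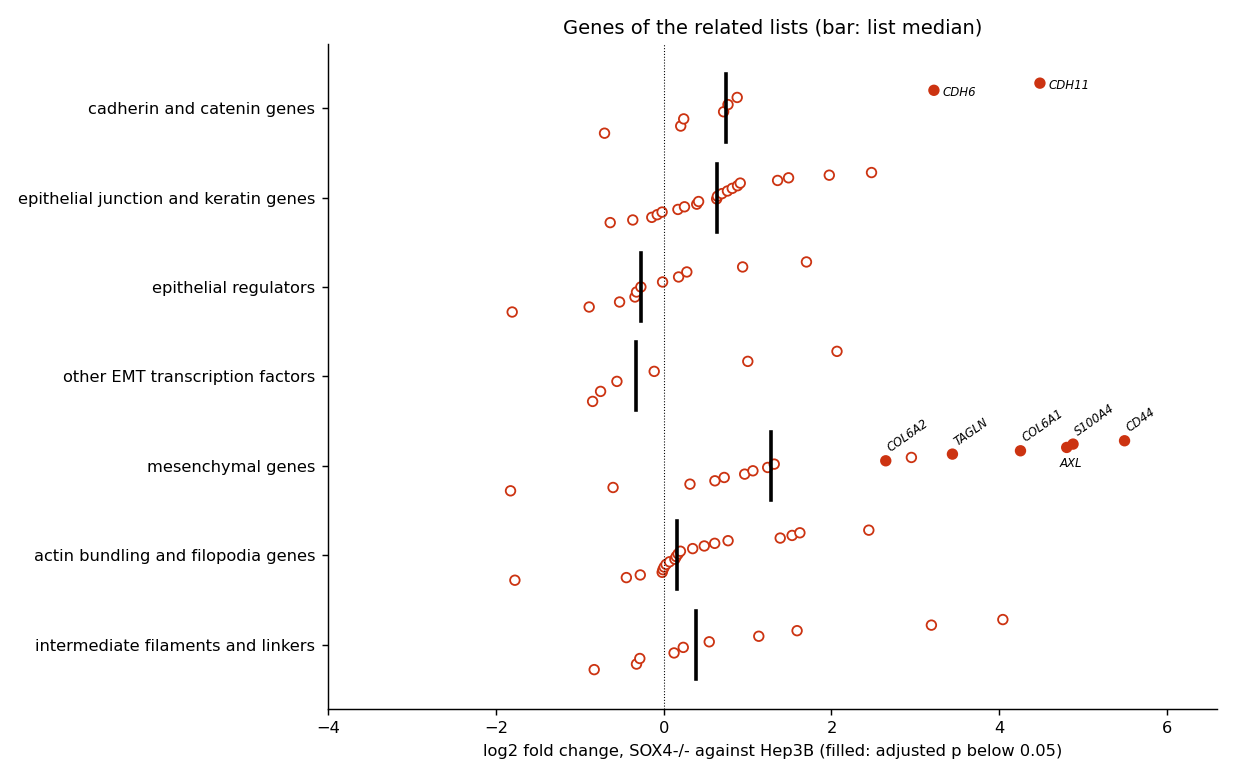
Each point is a reported gene of 1 of the 7 lists, placed by its log2 fold change in SOX4-/- against Hep3B, with filled, named points where the adjusted p was below 0.05 and a black bar at the list median. The 6 mesenchymal genes that passed lie from 2.65 to 5.49, and no gene plotted passed below 0.

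STAT6 siRNA gave no call for any of the genes. Of the 9 genes listed there, 8 were tested and 0 passed (edgeR's quasi-likelihood test), as did 0 of all 13554 genes tested, which is 0% called. At an unadjusted p under 0.05 there were 0 of the 8 and 14 of all genes, and DESeq2 also called 0. With libraries paired by number in edgeR, the unadjusted p was 0.0178 for ZEB1, 0.0358 for SNAI1 and above 0.05 for the rest. No EMT gene passed after adjustment in that fit. The median log2 fold change of the 8 genes was -0.02, against -0.03 over all genes. Both STAT6 siRNA libraries lay outside both control libraries for 3 of the 8 genes, VIM, SNAI1 and SNAI2, against 8% of all genes tested. TWIST1 had 7 and 9 counts with the control siRNA and 4 and 11 counts with STAT6 siRNA.

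FSCN1 stood at 397.5 and 324.6 CPM with the control siRNA and at 445.0 and 261.4 CPM with STAT6 siRNA. The STAT6 siRNA values lay on either side of the controls (log2 fold change -0.03, SE 0.56). CDH2 stood at 11.3 and 34.6 CPM against 7.94 and 28.3 CPM, with overlap (log2 -0.34, SE 0.81). VIM stood at 521.2 and 533.8 CPM against 377.7 and 478.5 CPM, lower in both STAT6 siRNA libraries (log2 -0.30, SE 0.54).

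CDH1 stood at 112.7 and 131.2 CPM with the control siRNA against 116.6 and 162.9 CPM with STAT6 siRNA (log2 0.20, SE 0.56). EPCAM stood at 121.2 and 304.7 CPM against 104.9 and 321.0 CPM, and the 2 libraries of each condition differed far more than the conditions did. ZEB1 stood at 0.904 and 3.95 CPM against 0.220 and 2.48 CPM (log2 -0.81, SE 1.01), again with the larger gap inside each condition. SNAI1 stood at 1.30 and 0.667 CPM against 2.28 and 1.32 CPM (log2 0.86, SE 0.80) and SNAI2 at 0.565 and 0.444 CPM against 0.588 and 1.03 CPM (log2 0.70, SE 0.83), on 8 to 32 counts per library. All adjusted p-values of the 8 genes were 1.00.

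In the 7 lists 0 genes passed with STAT6 siRNA by edgeR without a replicate block or by DESeq2, with list medians between -0.14 and 0.13, and 0 had an unadjusted p under 0.05. The smallest p in each list belonged to NECTIN2 (log2 0.46), ST14 (log2 0.53), KLF4 (log2 -1.08), SNAI3 (log2 0.89), TAGLN (log2 1.19), ESPN (log2 0.63) and PLEC (log2 0.44). TAGLN, which rose in the libraries labelled SOX4-/-, stood at 33.9 and 21.5 CPM with the control siRNA and at 63.3 CPM in both STAT6 siRNA libraries (unadjusted p = 0.0799). Pairing the libraries by number as a replicate block gave TAGLN an adjusted p of 1.41e-05 (log2 1.23).

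Whether the 2 perturbations differed was tested in 1 fit of all 8 libraries. Of 14313 genes tested, 11 passed, 0.0769%, and 0 of the 8 EMT genes in this fit did (edgeR's quasi-likelihood test). At an unadjusted p under 0.05 there were 939 genes, among them FSCN1, CDH2 and SNAI2. FSCN1 differed by -3.05 (SE 0.78, unadjusted p = 0.00158, adjusted p = 0.195), CDH2 by 2.69 (SE 0.96, adjusted p = 0.495) and SNAI2 by -3.80 (SE 1.32, adjusted p = 0.476). DESeq2 called FSCN1 in this test (log2 -3.12, adjusted p = 0.0183). In this edgeR fit, neither the fall of FSCN1 nor the rise of CDH2 passed the test of the difference.

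The same genes also differed between libraries of 1 condition. Hep3B library 1, compared with Hep3B library 2, held less CDH1 and more VIM, SNAI2 and SOX4. On log2 of CPM plus 0.5, library 2 minus library 1 was 1.64 for CDH1, -1.15 for VIM, -2.24 for SNAI2 and -1.59 for SOX4. Differences as large or larger in size were found for 5.92% of the 14415 genes in the case of CDH1, 14.3% for VIM, 2.42% for SNAI2 and 6.51% for SOX4. ZEB1 (-0.65), FSCN1 (-0.52) and TWIST1 (-0.99) were also lower in library 2, SNAI1 (0.72) was higher, and CDH2 (-0.07) and EPCAM (0.02) were nearly equal. Between the libraries labelled SOX4-/-, CDH2 was lower in library 2 (-0.99), while FSCN1 (1.15), VIM (0.66) and ZEB2 (2.37) were higher.

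In the siRNA table, library 2 differed from library 1 in the same direction in both conditions for several of the genes: CDH2 by 1.57 with the control siRNA and 1.77 with STAT6 siRNA, EPCAM by 1.33 and 1.61, and ZEB1 by 1.67 and 2.05. FSCN1 went the other way, by -0.29 and -0.77, as did SNAI1, by -0.63 and -0.61. Transcripts of FSCN1 and SNAI1 are rich in GC (65% and 58.2%), and those of CDH2, EPCAM and ZEB1 are not (43.4%, 47.0% and 40.1%). Other genes did not follow that order: TWIST1 (57.2% GC) differed by 0.0067 and 0.26, and SNAI2 (42.5% GC) by -0.17 and 0.49. Across 12956 genes of the siRNA table, GC content and the log2 ratio of library 2 to library 1 had a Spearman correlation of -0.76 with the control siRNA and -0.82 with STAT6 siRNA. In the knockout table the correlation was -0.09 between the Hep3B libraries and 0.29 between those labelled SOX4-/-. The part of GC content in the levels of these genes was not tested.

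**Figure D4:**
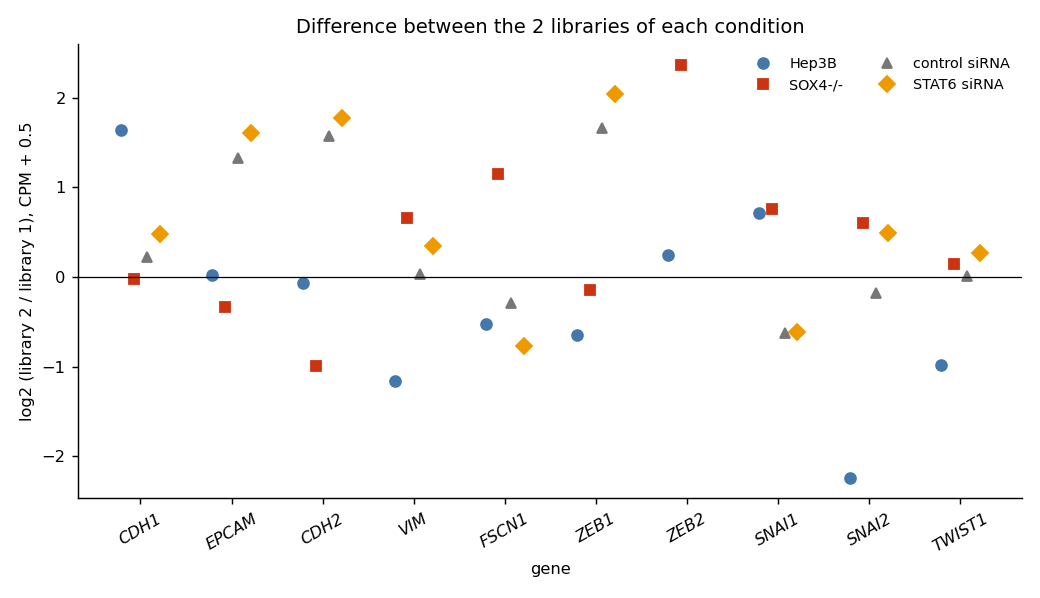
Points give, for each gene, the log2 ratio of library 2 to library 1 within 1 condition, after adding 0.5 CPM (blue circles, Hep3B; red squares, SOX4-/-; grey triangles, control siRNA; orange diamonds, STAT6 siRNA). CDH2, EPCAM and ZEB1 lie between 1.33 and 2.05 in both siRNA conditions, and CDH1 at 1.64 and SNAI2 at -2.24 stand out between the Hep3B libraries.

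For the 5 genes with enough counts, the genes with the most similar pattern were sought by the root mean square difference of log2 CPM, centred within each table, over the 8 libraries and 10053 genes. For CDH2 these were PDGFD (0.132), ALCAM (0.163) and LPGAT1 (0.253), and for FSCN1 they were AKNA (0.291), PARM1 (0.319) and ISL2 (0.331). No gene followed FSCN1 as closely as PDGFD followed CDH2. For VIM they were SPRY2 (0.108), ATP9A (0.119) and LRIG1 (0.140), for CDH1 MAPRE2 (0.125), FAM188A (0.147) and RPRD2 (0.174), and for EPCAM USP48 (0.064), CPSF2 (0.069) and OCIAD1 (0.073). The 8 libraries share a cell line and, within each table, their scaling. The likeness also takes in differences between libraries of 1 condition. For EPCAM, log2 of library 2 over library 1 was 1.33 with the control siRNA and 1.61 with STAT6 siRNA. It was 0.02 in Hep3B and -0.34 in the libraries labelled SOX4-/-.

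Reads of antisense neighbours could blur several of the genes, and 2 of these neighbours were listed. Antisense genes that were not listed share exon bases with ZEB2 (1299 with ZEB2-AS1), VIM (619 with AL133415.1), CDH1 (347), TWIST1 (141) and CDH2 (136). VIM shares 641 exon bases in GENCODE 29 with the antisense gene VIM-AS1, which stood at 0.738 and 0.316 CPM in Hep3B against 1.44 and 1.37 CPM with the SOX4-/- label, and ZEB1 shares 366 exon bases with ZEB1-AS1, which stood at 1.93 to 2.53 CPM in these 4 libraries. VIM-AS1 and ZEB1-AS1 were far below their partner in these 4 libraries. Their levels in the siRNA table, where ZEB1 stood at 0.220 to 3.95 CPM, are not given here. The libraries were prepared with a stranded kit, but whether the counting used the strand is not given in the sources used here. The FSCN1 pseudogene FSCN1P1 was not listed in either table.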

How the data were processed

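RNA-seq was done in 8 Hep3B libraries, prepared with a stranded mRNA kit from TRIzol RNA. The deposited values are expected counts per RefSeq transcript, which the authors made from their reads and left unnormalised; the submitters' processing notes name STAR, Partek and hg38, and the quantifier and its use of strand are not given in the sources used here. The smallest sum of a listed transcript over the 4 libraries of its table was 10. There was 1 table per comparison.

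Expected counts were summed per gene symbol and rounded to whole numbers. Each table was fitted with edgeR 4.0.16 (filterByExpr with a minimum count of 10, TMM, quasi-likelihood test, two-sided) in R 4.3.3, and p-values were Benjamini-Hochberg adjusted over all genes tested, with a threshold of 0.05. Whether changes differed between the perturbations was tested in 1 fit of all 8 libraries over genes listed in both tables. The code was tested on simulated data. Levels are TMM-scaled CPM, and log2 ratios of single libraries used CPM plus 0.5. Alternatives were DESeq2 1.42.0, its median-of-ratios factors, no count filter, at least 10 counts in every library, a replicate block, a fit of all 8 libraries, and leaving out each library. Totals of 16266282 to 25353113 set the counting error, and 2 libraries per condition gave the spread.

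Named were the 10 genes, SOX4, STAT6, up to 6 genes that passed in each list (or the gene with the smallest p), and the 3 genes most like each gene with a mean of at least 100 counts; neighbours and marker genes were also named. The genes and lists were chosen with earlier results of these data known. Promoter windows came from RefSeq and transcript lengths from GENCODE 29. From the junction and keratin list 1 gene, which passed the test in the knockout comparison, is not reported here and was left out of the list's counts, median and plot.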

Additional observations from a re-analysis of the deposited data

How the results depend on the processing

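In the knockout comparison 849 genes passed. The count was 2122 with DESeq2, 518 with at least 10 counts in every library, 438 in the fit of all 8 libraries, and 33 to 2302 with 1 library left out. Of the EMT genes 2 passed, 1 in the fit of all 8 libraries, and 0 to 3 with 1 library left out. In the test of the difference, 11 genes passed, against 165 with DESeq2 and 0 to 129 with 1 library left out, and of the EMT genes 0 passed, against 1 with DESeq2.

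No shared culture or day is stated for same-numbered libraries. The deviations of libraries 1 correlated at -0.08 for the knockout comparison and at 0.90 for the siRNA one. In the siRNA table edgeR's common dispersion, its estimate of the spread between libraries, was 0.243 without a replicate block and 0.0169 with it. In the knockout table it was 0.145 and 0.153. Without the block, the siRNA test counted what same-numbered libraries shared as spread. With the number as a replicate block, 62 genes passed with STAT6 siRNA, 0 of them EMT genes (lowest adjusted p 0.363, ZEB1), and 97 passed in the test of the difference, 1 of them an EMT gene (CDH2, 2.65, adjusted p = 0.0482). Of the list genes, the block added ESRP2 (1.68, adjusted p = 0.0322) and DIAPH3 (-1.84, adjusted p = 0.0488) in the knockout and TAGLN with STAT6 siRNA. Of the cell type markers it added CD14 with STAT6 siRNA (1.23, adjusted p = 0.00964). Under the replicate block the log2 value turned to 0.10 for CDH1 in the knockout, to -0.065 for EPCAM with STAT6 siRNA and to 0.17 for ZEB1 in the difference.

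Small values that did not pass changed sign elsewhere. With STAT6 siRNA, FSCN1 turned to 0.086 with median-of-ratios factors, 0.069 with DESeq2 and 0.031 in the fit of all 8 libraries, and EPCAM to -0.0036 without a count filter and -0.0015 with at least 10 counts in every library. With 1 library left out, knockout log2 values ran from -0.79 to 0.92 for CDH1, -0.28 to 0.024 for EPCAM, -1.87 to 1.65 for ZEB2 and -0.61 to 0.49 for SNAI1. Those with STAT6 siRNA ran from -0.064 to 0.42 for CDH1, -1.53 to 0.68 for CDH2, -1.02 to 0.81 for EPCAM, -3.43 to 0.61 for ZEB1 and -0.46 to 0.30 for FSCN1. Differences ran from -1.05 to 0.64 for CDH1, -0.997 to 0.77 for EPCAM and -1.54 to 2.46 for ZEB1. Of the alternatives of single genes, 216 kept direction and side of the threshold, 28 changed sign, 4 newly passed and 5 no longer passed. With 1 library left out, the lone library of a condition is assumed to vary like the other condition, and the causes of these changes were not tested.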
